A study of Mus musculus with 12 samples.

Results

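The comparison described here set RNA bound to the tagged ribosomes of rod photoreceptors against RNA of the whole retina in mice whose rods lack Shp2, a cytosolic tyrosine phosphatase encoded by Ptpn11. It asked which genes were higher or lower in rods than in the surrounding retina when the phosphatase is missing. The members are 6 of the 12 libraries of the series, 3 of KO rods and 3 of KO retina, taken by their genotype and tissue labels, and the 16167 genes whose values were high enough to test. KO mice carried 2 floxed Shp2 alleles, the rod Cre transgene i75-Rod-Cre and homozygous RiboTag, an allele of Rpl22 that gives ribosomal protein L22 an HA tag in cells with Cre. Control mice, labelled Shp2_Rodhet and called Het here, carried the same RiboTag and Cre with 1 floxed and 1 normal Shp2 allele, so the controls had lost 1 copy in rods and no group without Cre was used. Cre was driven by a promoter active in rods, and mice were 2 weeks old. KO and Het each gave 3 rod and 3 retina libraries, with translation frozen by perfusion of cycloheximide before the retina was taken. The labels do not say which libraries came from the same mouse, nor that replicates came from separate mice, so p-values measure the spread between these libraries.

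Rods are the most common cells of the mouse retina and detect dim light. Light activates the visual pigment in the outer segment, the pigment activates the G protein transducin, transducin activates a phosphodiesterase that breaks down cGMP, and cyclic nucleotide-gated channels then close. In translating ribosome affinity purification (TRAP), an antibody to the HA tag pulls down the tagged ribosomes with the mRNA on them, so the rod libraries sample cytosolic mRNA on ribosomes of cells with Cre, while the retina libraries sample RNA of every cell. In such bulk samples, fewer cells of a type and less RNA per cell cannot be told apart.

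The 3 KO rod libraries stood at 16263948 to 16264991 in summed values and the 3 KO retina libraries at 14525527 to 14527992. The values are read counts that had been multiplied by 1 factor for each library, and the factors put the depth at about 11890000 to 18280000 reads in KO rods and 9980000 to 19230000 in KO retina. KO retina replicate 3 stood apart from the other KO retina libraries, because lens genes took 7.29% of its total against 0.585% and 1.32% in replicates 1 and 2. It also held 0.0801% of retinal pigment epithelium genes against 0.00494% and 0.00941%. Counts with and without that library are given where they matter.

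The targeted gene came first as a check of the labels. Ptpn11 (ENSMUSG00000043733) had TMM-scaled values of 1999, 2400 and 2241 in KO rods and of 1878, 1873 and 2258 in KO retina. TMM scaling brings the libraries to a common level for most genes, and every value called scaled below is on that scale. The KO groups overlapped for Ptpn11, with a log2 difference of 0.145 ± 0.126 (SE, n = 3 and 3, limma adjusted p = 0.333). In deposited values, the KO rod libraries held 1735, 2139 and 1971 and the Het rod libraries 2511, 2439 and 2431, so that each KO rod library was below each Het rod library. These are values over the whole gene, exons outside the floxed part included, so they do not measure how much intact Shp2 mRNA was left. Rpl22, the gene that carries the tag, had 1862, 1810 and 1847 in KO rods and 1439, 1455 and 1592 in KO retina, a log2 difference of 0.30 that stayed under the 0.5 needed for a call.

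Genes of the rod light response rose in KO rods and genes of nearly all other retinal cells fell. A gene was called changed at an adjusted p below 0.05 in limma and an absolute log2 difference above 0.5. Of the 16167 genes tested, 10033 were changed, 62.1% of all, with 4144 higher in rods (25.6%) and 5889 lower (36.4%). For 9878 of the changed genes the 3 rod and 3 retina values did not overlap, and over all tested genes the groups did not overlap for 72.0%, with rods above for 32.7% and below for 39.3%. With 3 libraries against 3 the smallest p of an exact permutation test is 0.1, so no gene was tested that way. The number called depended little on single libraries, from 9341 without KO retina replicate 1 to 10174 without KO retina replicate 3. The split into higher and lower genes moved with the scaling. Rises made up 41.3% of changed genes with TMM, 12.5% with scaling to the library total (1124 higher, 7864 lower) and 61.3% with quantile normalization (6084 higher, 3840 lower). The median log2 difference of all genes was -0.0229, -0.547 and 0.28 under these scalings. Of the genes named below as higher, Rp1, Thrb, Stx3, Vax2os, Sucla2, Jun, Mcm3, Mcm4, Mcm5, Ocln, Hspa8, Hspa5, Tapbp and Fgf2 lost the call with library-total scaling. With quantile normalization the call was lost for Sag, Rp1, Thrb, Stx3, Atp5b, Vax2os, Sucla2, Hspa8 and Hspa5 among higher genes and for Cnga3, Cngb3, Rxrg, Iqcb1, Rps10, Cox6b2, Mrps15, Idh2 and Dusp1 among lower ones.

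Falls reached further than rises. Among higher genes 1536 passed a log2 difference of 1 and 27 passed 2, and among lower genes 5197 fell by more than 1, 4050 by more than 2 and 1568 by more than 4. Of all genes, 10% lay below -3.98 and 10% above 0.988. These counts depend on the filter, which 2550 genes met through the retina libraries alone, with a value under 10 in every KO rod library, and 2502 of those were called lower. Through the rod libraries alone it was met by 15 genes, and all 15 were called higher. Such genes could hardly pass without differing. Without these 2565 genes, 1522 rises passed 1 and 26 passed 2, and 2709 falls passed 1, 1779 passed 2 and 895 passed 4. Among the 12221 tested genes with a mean of at least 50 over the 6 libraries, 1386 rises passed 1 and 23 passed 2, and 2861 falls passed 1, 2201 passed 2 and 1343 passed 4.

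**Figure D1:**
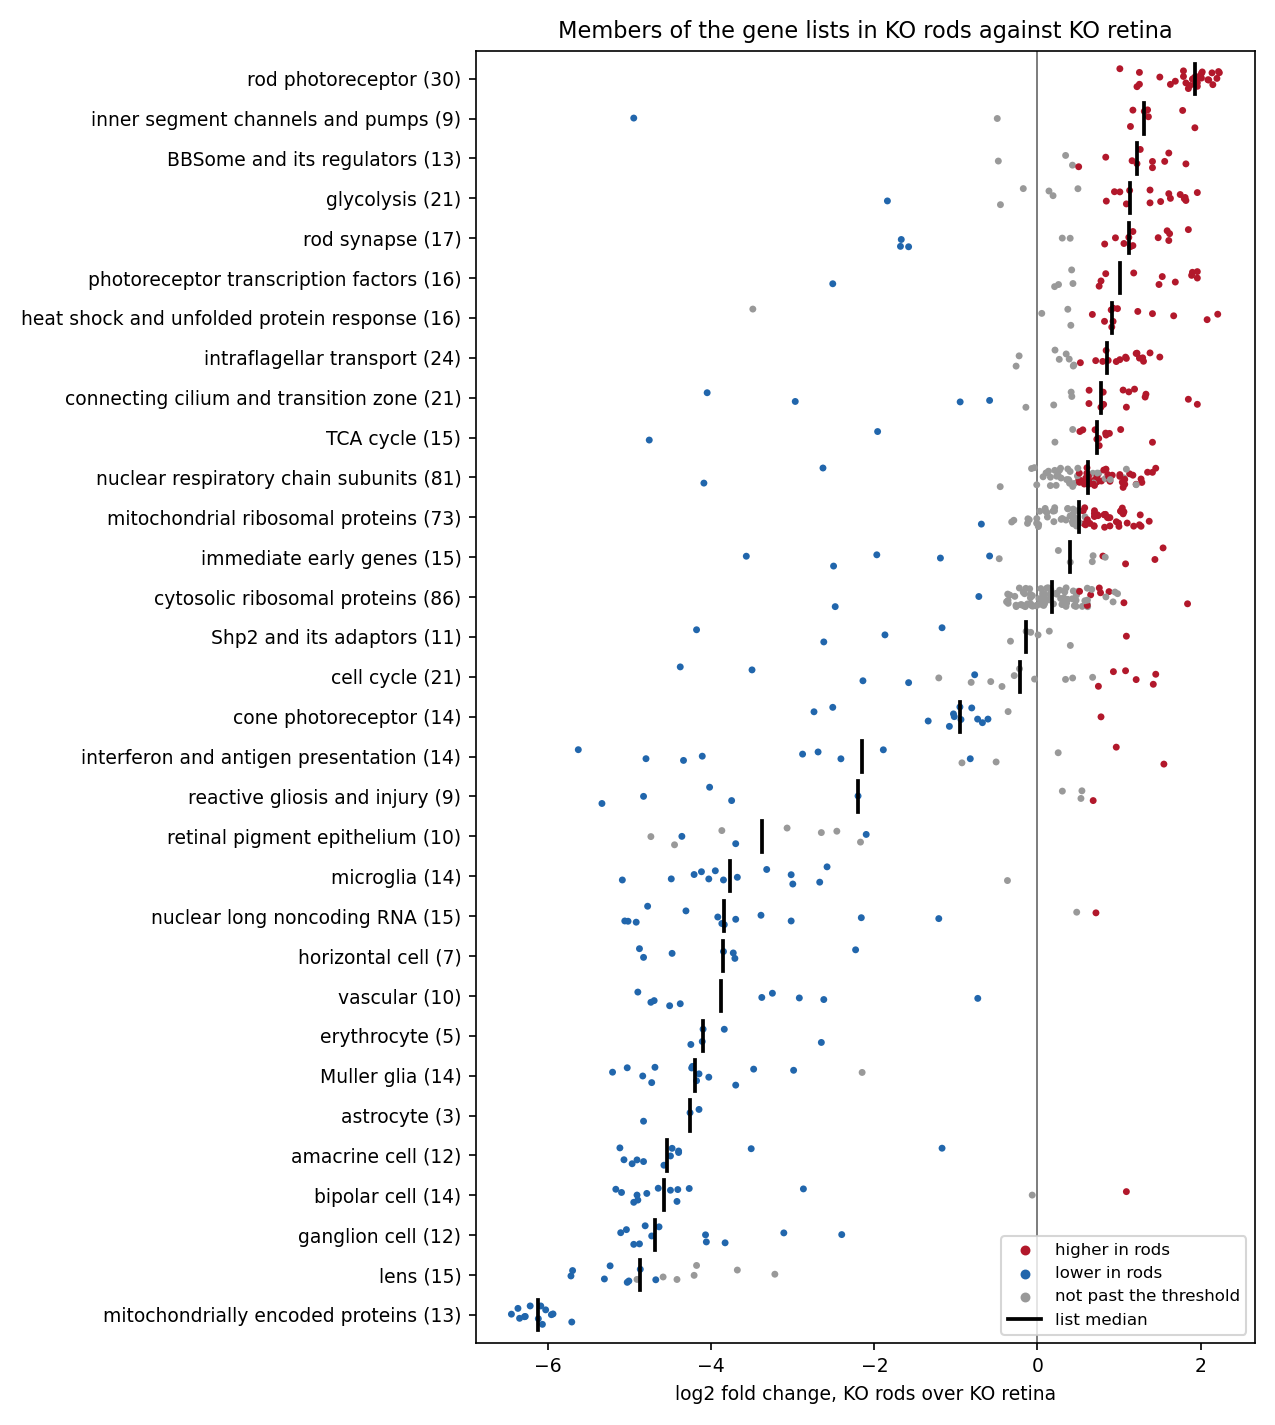
Log2 fold change of KO rods over KO retina for each tested member of 32 gene lists, with the number of members tested in brackets. Each point is 1 gene, the black bar is the median of the list, and the 30 rod photoreceptor genes all lie above 1 while the 13 mitochondrially encoded genes all lie below -5.

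The rod markers behaved as the label of the fraction says. Gnat1 (ENSMUSG00000034837), the alpha subunit of rod transducin, had scaled values of 456246, 470557 and 457237 in KO rods and 107166, 105654 and 109233 in KO retina. The rods were 4.30-fold higher, with a log2 difference of 2.10 ± 0.0992 (SE, limma adjusted p = 9.9e-07). Sag, rod arrestin, which ends the activity of the light-activated pigment, had 397821, 381740 and 217693 in rods and 97476, 89540 and 56186 in retina. Replicate 3 was the lowest of its group in both tissues, and the groups stayed apart, with a log2 difference of 2.02 ± 0.273 (limma adjusted p = 0.000195). Of the 30 genes on the rod list all 30 were higher, with a median log2 difference of 1.93 beside -0.0229 for all genes. Their summed share of the library was 23.7% to 25.1% in KO rods and 8.30% to 9.13% in KO retina.

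The smallest rise on the list was that of Rp1, a microtubule-associated protein of the outer segment axoneme. It stood at 43773, 40131 and 46475 in rods and 20906, 28314 and 16733 in retina, a log2 difference of 1.01. At the other end was Fscn2, a photoreceptor fascin that bundles actin, with 2533, 3327 and 2757 in rods and 543, 408 and 1014 in retina (log2 2.23 ± 0.292). Prph2, the tetraspanin that shapes the disc rim, rose by a log2 of 2.20.

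Rod genes and their cone counterparts went opposite ways. Cones use separate genes for most steps of the same cascade, so 10 pairs were formed of a rod gene and the cone gene with the same role. Every rod member rose, by log2 differences of 1.63 for Gngt1 to 2.15 for Pde6g. Every cone member but Gnb3 fell. Outside the pairs, Opn1sw, the short-wavelength cone opsin, had 2878, 2845 and 2969 in rods and 5310, 4806 and 5094 in retina (log2 -0.81 ± 0.102). Within them Gnat2, the cone transducin alpha subunit, had 848, 819 and 782 in rods and 1575, 1616 and 1548 in retina (log2 -0.95 ± 0.103). For both genes every rod library was below every retina library.

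The cone phosphodiesterase genes Pde6c and Pde6h fell by 1.03 and 0.734 on the log2 scale, and the cone arrestin gene Arr3 fell by 1.08. The cone channel genes Cnga3 and Cngb3 fell by 0.607 and 1.02. The call for Cnga3 was lost without KO rod replicate 2 (limma adjusted p = 0.0735) or without KO retina replicate 1 (limma adjusted p = 0.08), and its sign turned with quantile normalization. Gnb3, the cone transducin beta subunit, had 1444, 1432 and 1613 in rods and 2044, 1423 and 2425 in retina, and the groups overlapped (limma adjusted p = 0.117). Without KO retina replicate 2, the low one, Gnb3 was called lower (log2 -0.585, limma adjusted p = 0.0023), as it was with library-total scaling (log2 -0.895, limma adjusted p = 0.00171) and quantile normalization (log2 -0.697, limma adjusted p = 0.017). Slc24a2, the cone sodium, calcium and potassium exchanger, which inner retinal neurons also use, fell furthest among the pairs, from 1246, 1385 and 863 in retina to 136, 127 and 149 in rods.

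On the whole cone list of 14 genes, 12 were lower, 1 was not called and 1 was higher, with a median log2 difference of -0.945. The higher gene was Thrb, the thyroid hormone receptor beta that cones need for the choice of opsin. It had 2135, 2226 and 2253 in rods and 1250, 1541 and 1097 in retina (log2 0.78 ± 0.139). Rxrg, the retinoid X receptor gamma, fell by 2.51. The median over the lists of cells other than photoreceptors, described below, was -4.26.

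**Figure D2:**
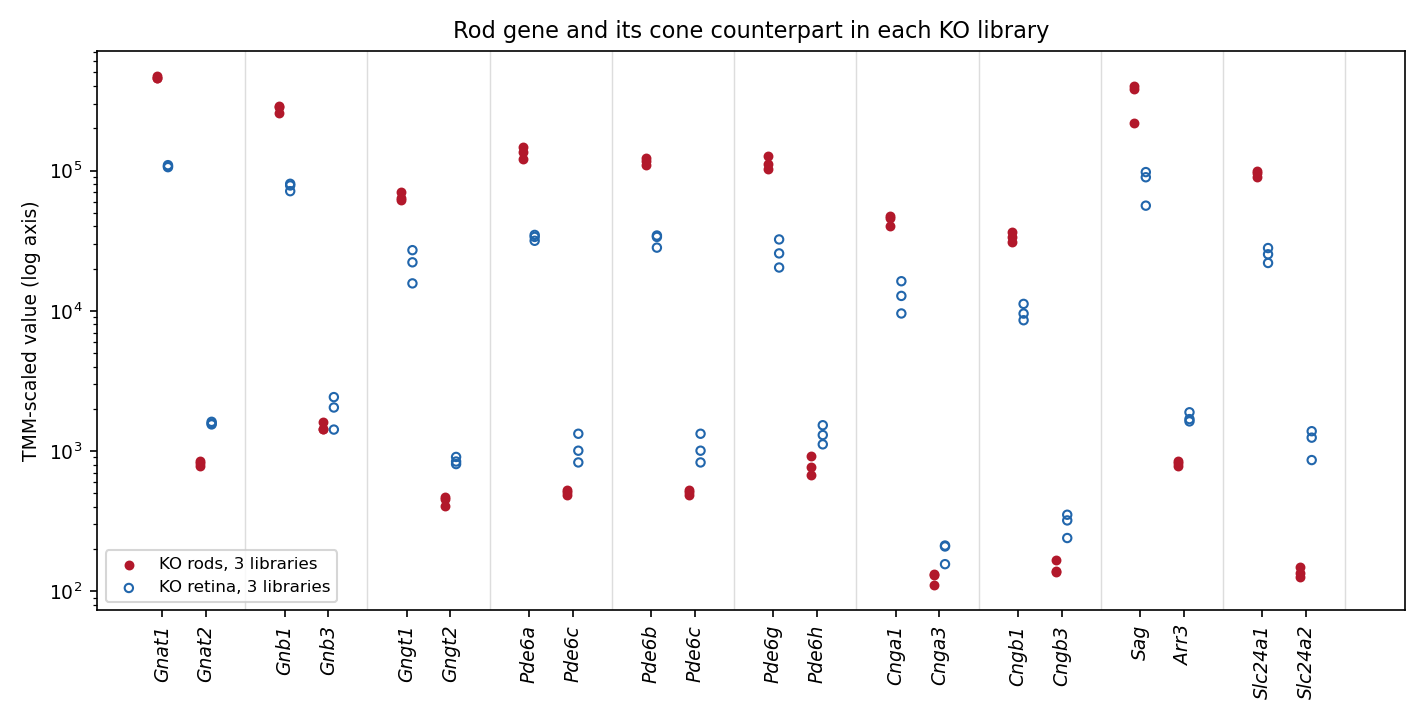
Scaled values on a log axis of each rod gene and its cone counterpart in the 3 KO rod libraries (filled) and the 3 KO retina libraries (open). The filled points lie above the open ones for all 10 rod genes and below them for every cone gene but Gnb3, and levels of different genes are not compared because values are not divided by gene length.

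Rod and cone genes share a regulator, CRX, a homeodomain factor of photoreceptors that binds DNA with the core TAATCC. Promoter windows of 250 bases before to 50 bases after the start were taken from RefSeq (GRCm38.p6) and matched by symbol, with 11201 of the tested genes found. The core, on either strand (TAATCC or GGATTA), stood in 7.23% of all 27025 windows and in 5.94% of those of tested genes. It stood in 6.83% of windows of the 3031 genes higher in KO rods, in 8.93% of those higher by over 1 log2, and in 14.4% (28 of 194) of those higher by over 1.5. It stood in 5.38% of the windows of lower genes, in 9 of 22 windows of the rod list and in 2 of 10 of the cone list. A half-site of NRL, the rod fate factor (TGCTGA, or TCAGCA on the other strand), stood in 19.3% of all windows and 15.9% of those of tested genes. It stood in 14.5% of windows of higher genes, 15.3% of those higher by over 1 log2, 20.6% (40 of 194) of those higher by over 1.5, 18.2% of the rod list and 18.3% of lower genes. The TATA box letters (TATAAA, or TTTATA on the other strand) stood in 14.1% of all windows, 7.07% of those of tested genes, 6.53% of higher genes, 8.74% of those higher by over 1, 11.9% of those higher by over 1.5, 18.2% of the rod list and 8.14% of lower genes. All 3 motifs thus stood in a larger share of the windows of genes higher by over 1.5 than of tested genes, and the differences were not tested. No windows were printed for Gnat1 and Pde6g.

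The 150 bases before the start are shown for 4 rod genes that rose and for 2 genes that fell, chosen because each holds the core, which is in capitals on whichever strand it was found. They show that the same letters stand before genes that went opposite ways. Sag lies on chromosome 1 (chr1:87803530-87803679, plus strand), Rbp3 on chromosome 14 (chr14:33953853-33954002, plus), Cngb1 on chromosome 8 (chr8:95306586-95306735, minus), Gngt1 on chromosome 6 (chr6:3993858-3994007, plus), the cone gene Gnat2 on chromosome 3 (chr3:108092916-108093065, plus) and the bipolar cell gene Trpm1 on chromosome 7 (chr7:64153685-64153834, plus).
Sag: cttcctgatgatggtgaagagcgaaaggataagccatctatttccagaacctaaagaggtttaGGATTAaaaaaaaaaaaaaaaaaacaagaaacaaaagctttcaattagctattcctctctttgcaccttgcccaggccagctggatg
Rbp3: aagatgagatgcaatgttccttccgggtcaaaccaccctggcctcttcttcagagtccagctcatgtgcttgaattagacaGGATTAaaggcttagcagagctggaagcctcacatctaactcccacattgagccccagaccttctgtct
Cngb1: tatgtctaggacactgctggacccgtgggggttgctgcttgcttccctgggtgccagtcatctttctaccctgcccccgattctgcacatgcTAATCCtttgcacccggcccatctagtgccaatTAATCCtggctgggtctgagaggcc
Gngt1: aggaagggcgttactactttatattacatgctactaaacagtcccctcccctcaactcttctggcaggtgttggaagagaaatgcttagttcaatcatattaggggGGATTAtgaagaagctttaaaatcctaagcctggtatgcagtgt
Gnat2: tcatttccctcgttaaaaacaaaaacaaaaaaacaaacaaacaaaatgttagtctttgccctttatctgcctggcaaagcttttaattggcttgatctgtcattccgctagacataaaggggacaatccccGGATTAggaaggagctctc
Trpm1: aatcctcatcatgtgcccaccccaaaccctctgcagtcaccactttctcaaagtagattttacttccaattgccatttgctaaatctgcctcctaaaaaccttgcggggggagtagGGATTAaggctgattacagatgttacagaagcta
In these windows the core began 87 bases before the start in Sag, 69 in Rbp3, 44 in Gngt1, 19 in Gnat2 and 34 in Trpm1, and Cngb1 held it 58 and 25 bases before the start. A match of letters is a description and not evidence of binding. Cngb1, the beta subunit of the rod channel, had 33529, 36242 and 31139 in rods and 9551, 8565 and 11201 in retina (log2 1.79), and Gngt1, the rod transducin gamma subunit, had 70638, 63804 and 62022 against 22166, 27061 and 15683 (log2 1.63). Trpm1, the channel that opens in ON bipolar cells in light, had 85.3, 61.7 and 168 in rods and 2844, 2637 and 5043 in retina (log2 -5.10).

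Of the largest rises among genes with a mean of at least 100 in the higher fraction, several belong to photoreceptors. Vtn, vitronectin, a matrix protein, had 41146, 41263 and 39376 in rods and 8802, 6761 and 10567 in retina (log2 2.24 ± 0.161). Rbp3, the retinoid carrier of the matrix between photoreceptors and pigment epithelium, had 256005, 257529 and 254971 in rods and 56770, 48794 and 63216 in retina (log2 2.19 ± 0.123). Hspa1b, an inducible Hsp70 chaperone, had 1054, 860 and 722 in rods and 210, 128 and 236 in retina (log2 2.21 ± 0.242). Each of these had its rod values well above its retina values.

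Fscn2, Prph2, Susd3, Llgl2, Klc3 and Bcar1 were also among the 10 largest rises. Susd3, a sushi domain protein, rose by 2.20, Llgl2, a cell polarity protein, by 2.18, Bcar1, a docking protein of integrin signalling, by 2.15 and Klc3, a kinesin light chain, by 2.15. These 9 genes shared a pattern over the retina libraries, lowest in replicate 2 and highest in replicate 3. Klc3 stood at 130, 61.1 and 317 in retina and at 526, 900 and 490 in rods, and its standard error was 0.537. KO retina replicate 2 had a log2 difference of -0.428 between the 10% of genes with the highest and the 10% with the lowest transcript GC content, and KO retina replicate 3 one of 1.09. With the GC trend of each library removed, all 9 were still called higher.

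Genes of other retinal cells were far lower in KO rods. Over the 11 lists of cell types other than photoreceptors, 98 of 116 tested genes fell, 1 rose and 17 were not called, with a median log2 difference of -4.26. The median of the ratio of rod mean to retina mean was 3.67%. Some of the 116 genes, among them Ctss, Csf1r and C1qb of microglia, had deposited values under 10 in every KO rod library. Such genes met the filter through the retina alone, so their fall was nearly fixed in advance. They were not taken out of the counts and medians of the lists. Glul, the glutamine synthetase of Müller glia, had 1170, 846 and 1514 in rods and 20910, 17036 and 28045 in retina (log2 -4.23 ± 0.238). Dkk3, a secreted Wnt modulator made by Müller glia, fell by 5.21 and Rlbp1, a retinaldehyde-binding protein, by 4.73. Of the 14 genes on the Müller list 13 were lower, with a median of -4.20, and Spc25, a kinetochore protein on that list, was not called (limma adjusted p = 0.4) without a replicate block and called lower with one (limma adjusted p = 0.0263).

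Interneurons and ganglion cells gave the same picture. All 12 amacrine genes fell (median -4.54). Pax6, a transcription factor of amacrine, horizontal and ganglion cells, had 171, 119 and 155 in rods and 3234, 2917 and 3277 in retina. The 12 ganglion cell genes all fell (median -4.69), with Nefl, the light neurofilament subunit, at 160, 92.0 and 92.1 in rods and 4076, 4424 and 3243 in retina. All 7 tested horizontal cell genes fell (median -3.85), and Prox1, a homeobox factor, had 103, 53.8 and 72.8 in rods and 2238, 2437 and 2044 in retina.

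Bipolar cell genes fell in 12 of 14 cases (median -4.58), and the other two went another way. Prkca, protein kinase C alpha, widely used to mark rod bipolar cells, had 4066, 3676 and 4591 in rods and 4450, 5089 and 3466 in retina, with a log2 difference of -0.0645 ± 0.16 (limma adjusted p = 0.738). Its sign turned when KO rod replicate 2 or KO retina replicate 2 was left out, and it was called lower with library-total scaling (log2 -0.601, limma adjusted p = 0.013) and with quantile normalization (log2 -0.564, limma adjusted p = 0.00965). Lrit3, a leucine-rich synaptic protein, had 2170, 1913 and 2212 in rods and 965, 1032 and 961 in retina (log2 1.09 ± 0.111, limma adjusted p = 3.77e-05). Cabp5, a calcium-binding protein of bipolar cells, had 136, 76.3 and 67.1 in rods against 2198, 2595 and 1526 in retina.

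Non-neuronal cells were low as well. Of 14 microglia genes 13 fell (median -3.77), and Ctss, cathepsin S, stood at 3.5, 2.2 and 4.5 in rods and 166, 165 and 210 in retina. Ctss met the filter through the retina libraries alone, as did other genes on that list. All 10 tested vascular genes fell (median -3.88), with Kdr, a receptor for vascular endothelial growth factor, at 53.0, 42.6 and 65.9 in rods and 1828, 1612 and 1514 in retina. Erythrocyte genes fell in 5 of 5 cases and astrocyte genes in 3 of 3.

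Lens and pigment epithelium genes were lower in KO rods at the median (-4.87 and -3.38) but varied so much between libraries that 8 of 15 and 3 of 10 were called. Cryaa, alpha-A crystallin, had 24501, 45768 and 295133 in retina and 1000, 2237 and 5845 in rods. The rod library of each number held the lens list at 2.60%, 2.15% and 1.55% of the share in the retina library of that number. Cryaa was called (log2 -4.87, limma adjusted p = 0.0192), and the call was lost without KO retina replicate 2 or KO rod replicate 1 or 2, with limma adjusted p from 0.0575 to 0.0607, or with all 12 libraries in the fit (limma adjusted p = 0.228). Without KO retina replicate 3 the log2 difference was -3.86 with an adjusted p of 0.0323 in limma, and the median of the lens list was -3.50. Pmel, a melanosome protein, had 103, 216 and 3857 in retina and 4.6, 5.6 and 89.8 in rods, and was not called (limma adjusted p = 0.0656). It was called lower without KO retina replicate 1 (log2 -5.77, limma adjusted p = 0.0395), without KO rod replicate 3 (log2 -5.98, limma adjusted p = 0.0188) and with the replicate number as a block (limma adjusted p = 8.46e-06). It was also called with a pseudocount of 0.5, with all 12 libraries in the fit and with lens and mitochondrial genes left out, at limma adjusted p from 0.0177 to 0.0483.

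**Figure D3:**
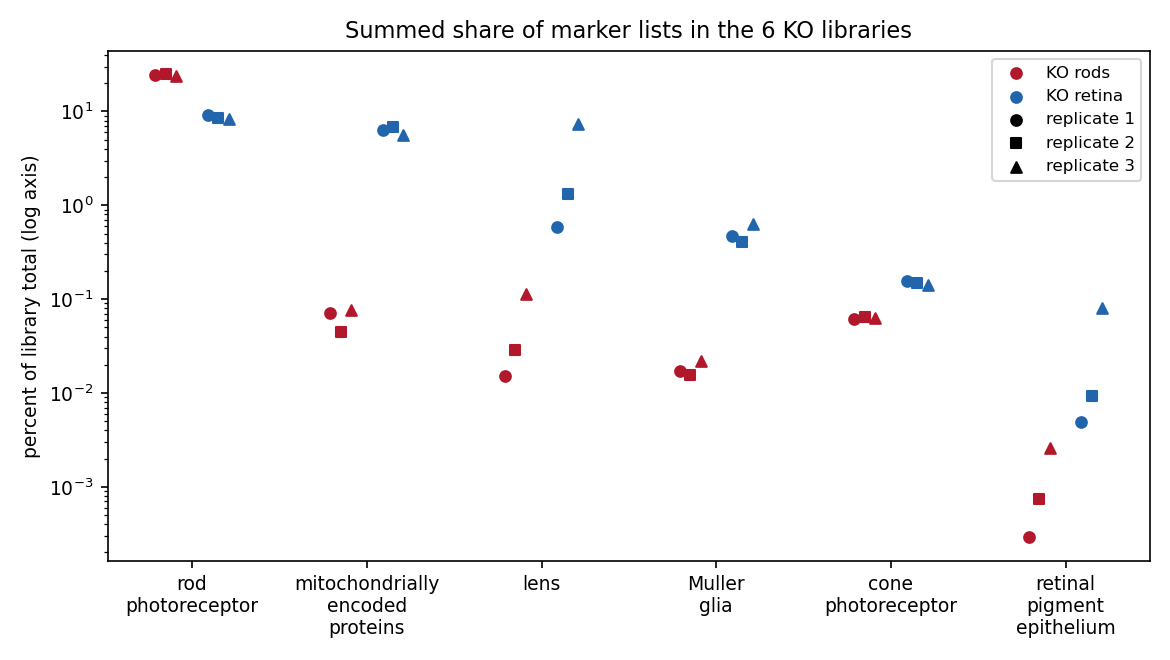
Summed share of the library total, in percent on a log axis, of 6 marker lists in each KO library, with the replicate number shown by the symbol. Rod genes lie at 23.7% to 25.1% in KO rods and 8.30% to 9.13% in KO retina, and lens and pigment epithelium genes are highest in replicate 3 of both tissues.

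The deepest falls were those of the mitochondrial genome. Its transcripts are made and translated inside mitochondria on ribosomes that lack Rpl22. All 13 protein genes fell, with a median log2 difference of -6.12, and their summed share was 0.0452% to 0.0760% in KO rods and 5.57% to 6.90% in KO retina. The gene mt-Co1, for subunit 1 of cytochrome oxidase, had 4152, 2802 and 4499 in rods and 229605, 247594 and 215443 in retina. The ribosomal RNA gene mt-Rnr1 fell furthest of all genes tested (65.7, 49.4 and 81.8 against 6952, 6209 and 6476, log2 -6.62 ± 0.178). Of the 10 largest falls 9 were mitochondrial transcripts, mt-Rnr1, mt-Atp6, mt-Tp, mt-Nd6, mt-Atp8, mt-Cytb, mt-Nd5, mt-Nd2 and mt-Nd4l. The other was Optc, opticin, a proteoglycan of the vitreous made by the ciliary body, at 0, 13.5 and 17.1 in rods and 331, 586 and 1025 in retina.

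Long noncoding RNAs listed as nuclear were low too, with 13 of 15 lower (median -3.84). Malat1, a nuclear speckle RNA, had 440, 195 and 302 in rods and 4203, 5002 and 2770 in retina (log2 -3.70 ± 0.303). Norad, which is mostly cytoplasmic, fell by 2.16 and Tug1, which has a role in the developing retina, by 1.21. The exception was Vax2os, a noncoding RNA of photoreceptors, with 2566, 2346 and 2516 in rods and 1743, 1308 and 1495 in retina (log2 0.72 ± 0.13). Of all 1124 long noncoding RNAs tested, 9.96% were higher and 55.3% lower, and of the 13321 protein-coding genes 27.6% were higher and 35.9% lower.

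Nuclear genes for mitochondrial proteins did not follow the mitochondrial genome. Of 81 nuclear respiratory chain subunits 44 were higher and 2 lower, with a median log2 difference of 0.625. Atp5b, the beta subunit of ATP synthase, had 38350, 35054 and 39982 in rods and 15236, 15434 and 15993 in retina (log2 1.28 ± 0.106). Both lower genes are tissue-restricted subunits of cytochrome oxidase. Cox4i2, an isoform of subunit 4 known from lung, stood at 8.1, 3.4 and 12.5 in rods and 136, 138 and 200 in retina, and Cox6b2, a testis isoform, at 8.1, 7.9 and 8.0 against 56.2, 37.5 and 101. Cox6b2 met the filter through the retina libraries alone, so its call was nearly fixed in advance. Among 73 mitochondrial ribosomal proteins 35 were higher and 1 was lower, with a median of 0.510 that fell to -0.0204 with library-total scaling. Mrpl49 rose by 1.37, and the lower one, Mrps15, fell by 0.688 and turned positive with quantile normalization.

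Glycolysis genes were high in KO rods, with 15 of 21 higher, 1 lower and a median of 1.13. Photoreceptors turn much of their glucose into lactate. Pkm, pyruvate kinase, had 86645, 92268 and 83060 in rods and 23828, 18957 and 33453 in retina (log2 1.82 ± 0.192). Ldha, lactate dehydrogenase A, had 49059, 44666 and 42970 in rods and 15703, 13854 and 14586 in retina (log2 1.63 ± 0.111). Isozymes of 1 step differed. Pfkm, the muscle isozyme of phosphofructokinase, was the gene that fell (300, 399 and 404 against 1352, 1040 and 1584, log2 -1.84), whereas Pfkl, the liver isozyme, rose from 2484, 1630 and 4133 in retina to 8838, 9598 and 8437 in rods (log2 1.81). Hk2, the hexokinase of photoreceptors, rose by 1.96. Pfkl, Hk2 and Sucla2 are members of these lists that were singled out after their values were seen.

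In the TCA cycle 11 of 15 genes were higher and 2 lower (median 0.728). Mdh2, mitochondrial malate dehydrogenase, had 6331, 6689 and 6241 in rods and 2230, 1972 and 3166 in retina (log2 1.41). Suclg2, the subunit that makes succinyl-CoA synthetase use GDP, had 5.8, 5.6 and 3.4 in rods and 106, 159 and 363 in retina (log2 -4.76 ± 0.44). Suclg2 met the filter through the retina libraries alone, so its call was nearly fixed in advance. Sucla2, the subunit for ADP, had 2556, 2056 and 2390 in rods and 1343, 1718 and 1139 in retina (log2 0.75 ± 0.165). Idh2, the mitochondrial isocitrate dehydrogenase that uses NADP, fell by 1.96.

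A modified cilium links the inner and outer segment of rods. The BBSome, a coat complex that moves membrane proteins through cilia, was listed together with its regulators. Of these 13 genes 10 were higher, 3 not called and 0 lower in limma (median 1.22), with 1 gene below 0 at an unadjusted p under 0.05. Bbs9 stood at 5687, 5141 and 5973 in rods and 1626, 1764 and 1394 in retina (log2 1.82 ± 0.126). Arl6, the GTPase that recruits the complex to membranes, rose by 1.41. Of 24 intraflagellar transport genes 16 were higher, 8 not called and 0 lower, also at an unadjusted p under 0.05 in limma (median 0.855), with Ift122 at 1880, 1815 and 2030 in rods and 631, 656 and 737 in retina, and Kif3b, a kinesin-2 motor subunit, higher by 1.08.

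In the connecting cilium and transition zone 13 of 21 genes were higher, 4 lower and 4 not called (median 0.778). Tulp1, a tubby protein of photoreceptors needed for protein transport to the outer segment, had 29660, 36610 and 26528 in rods and 7831, 5911 and 10654 in retina (log2 1.96). Its relative Tulp3, which works in cilia of other cells, had 21.9, 10.1 and 9.1 in rods and 247, 181 and 320 in retina (log2 -4.05). Rpgrip1, which anchors RPGR in the connecting cilium, had 4578, 3793 and 4282 in rods and 8480, 9464 and 6659 in retina (log2 -0.95 ± 0.151), unlike most photoreceptor cilium genes. Iqcb1, a nephronophthisis gene, fell by 0.587. The call for Iqcb1 was lost without KO rod replicate 2, KO retina replicate 1 or KO retina replicate 2.

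At the rod synapse 12 of 17 genes were higher and 3 lower (median 1.12). Slc17a7, the vesicular glutamate transporter of photoreceptors, had 59960, 66471 and 53169 in rods and 20263, 16433 and 22422 in retina (log2 1.61). Stx3, the syntaxin of ribbon synapses, rose by 0.82. The 2 complexins on the list parted. Cplx4 had 24103, 21277 and 24293 in rods and 8256, 8671 and 6389 in retina (log2 1.59), while Cplx3 had 1324, 1440 and 1319 in rods and 4640, 3555 and 4942 in retina (log2 -1.67). Cplx4 was singled out after its values were seen. Bsn and Pclo, the large scaffold proteins bassoon and piccolo of the active zone, fell by 1.58 and 1.68.

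Of 9 inner segment channels and pumps 7 were higher and 1 lower (median 1.31). Atp1b2, the beta 2 subunit of the sodium pump, had 51980, 47792 and 49167 in rods and 21805, 19990 and 18352 in retina (log2 1.31 ± 0.112). Atp2b2, a calcium pump of the plasma membrane, had 42.6, 26.9 and 28.4 in rods and 1170, 919 and 1076 in retina (log2 -4.95 ± 0.212). That value lies near the medians of the lens, ganglion, bipolar and amacrine cell lists (-4.87, -4.69, -4.58 and -4.54). Which cells hold the transcript was not tested.

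Photoreceptor transcription factors were higher in 11 of 16 cases and lower in 1 (median 1.01). Nrl, which sets the rod fate, had 77130, 79093 and 75514 in rods and 21438, 21059 and 19722 in retina (log2 1.90 ± 0.102). Nr2e3, which represses cone genes in rods, rose by 1.96, Esrrb, an orphan nuclear receptor of rods, by 1.96 and Crx by 1.53. The gene that fell was Rxrg, given above with the cone list.

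Among 86 cytosolic ribosomal protein genes 8 rose and 2 fell, and 76 were not called. Their median of 0.179 became -0.356 with library-total scaling and -0.152 with quantile normalization, so no direction is given for the family. Rpl10 fell by 0.719 and Rps10 stood at 5.8, 1.1 and 5.7 in rods and 30.7, 27.9 and 31.1 in retina. Rps10 met the filter through the retina libraries alone, so its call was nearly fixed in advance. Counts of ribosomal protein genes are uncertain because many near-identical pseudogenes share their reads.

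Genes of the heat shock and unfolded protein response, chaperones among them, were higher in 12 of 16 cases and lower in 0, also at an unadjusted p under 0.05 in limma (median 0.919). Hsp90aa1, the inducible cytosolic Hsp90, had 100269, 74145 and 100715 in rods and 30581, 32436 and 23480 in retina (log2 1.67 ± 0.17). Hspa8, the constitutive Hsc70, rose by 0.82 and Hspa5, the chaperone of the endoplasmic reticulum, by 0.98. Hspb1, a small heat shock protein, had a log2 difference of -3.49 and was not called (limma adjusted p = 0.149), but was called lower with the replicate number as a block (limma adjusted p = 0.000964).

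On the list of Shp2 and its adaptors, Ptpn11 included, 1 of 11 genes rose, 4 fell and 6 were not called (median -0.139). The share of lower genes, 4 of 11, is that of all genes tested. Gab1, the docking protein that binds and activates Shp2, had 72.6, 74.0 and 102 in rods and 300, 270 and 347 in retina (log2 -1.87 ± 0.202). Grb2, the adaptor that links receptors to Ras, had a difference of -0.0825 ± 0.136 (limma adjusted p = 0.612), and was called lower with library-total scaling (log2 -0.617, limma adjusted p = 0.00332). Ocln, occludin, a tight junction protein, had 99.1, 75.2 and 90.9 in rods and 41.7, 33.2 and 46.7 in retina (log2 1.09 ± 0.238).

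Immediate early genes, which cells switch on within minutes of a stimulus, were mixed, with 4 of 15 higher and 5 lower. Over all genes tested 25.6% were higher and 36.4% lower, so these counts are near the background and say nothing particular about the family. Fos had 455, 361 and 326 in rods and 207, 148 and 180 in retina (log2 1.08) and Jun 399, 385 and 354 against 196, 167 and 310 (log2 0.80). Fosl2 fell by 3.57, and Dusp1, a phosphatase that turns off MAP kinases, fell by 0.587. Egr1 had 1174, 633 and 523 in rods and 719, 377 and 345 in retina, with replicate 1 the highest in both, and was not called (limma adjusted p = 0.111). It was called higher without KO retina replicate 1 (log2 1.02, limma adjusted p = 0.025) and with the replicate number as a block (limma adjusted p = 0.00534).

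Cell cycle genes were mixed too, with 6 of 21 higher and 5 lower (median -0.22, or 0.734 with quantile normalization). The share of higher genes is near the 25.6% of all genes tested, of which 36.4% were lower. Pcna, the clamp of DNA replication, had 2073, 1669 and 2067 in rods and 905, 1076 and 771 in retina (log2 1.08 ± 0.154). Of the replicative helicase genes on the list, Mcm2, Mcm3, Mcm4 and Mcm5 rose by 1.45, 1.21, 0.93 and 0.75. Mcm6 and Mcm7 were tested as well and were not called higher. The lowest log2 difference on the list was -4.38. The call for Mcm5 was lost when any 1 of 5 libraries was left out, all but KO retina replicate 3, with limma adjusted p from 0.0682 to 0.132, and also with the replicate block or with a mean of at least 50.

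Of 14 genes of interferon signalling and antigen presentation 2 rose and 9 fell (median -2.15, or 0.125 with quantile normalization). The background for this list and for the gliosis list below is 25.6% of all tested genes higher and 36.4% lower. B2m, the light chain of class I molecules, had 13.8, 2.2 and 17.1 in rods and 406, 428 and 891 in retina (log2 -5.63 ± 0.56), whereas H2-D1, a heavy chain, had 5793, 5947 and 2915 in rods and 1894, 1520 and 1398 in retina (log2 1.55 ± 0.264). H2-D1 belongs to a family of near-identical genes, so its counts are uncertain. Its log2 difference in Het mice was 0.406 ± 0.69 and was not called. In deposited values it had 382, 698 and 916 in Het retina and 2224, 1742 and 1527 in KO retina. Tapbp, tapasin, which loads peptide on class I molecules, rose by 0.97. Among 9 gliosis and injury genes 5 fell and 1 rose (median -2.20), the latter being Fgf2, a growth factor of stressed photoreceptors, with 806, 820 and 979 in rods and 520, 655 and 456 in retina (log2 0.68). Gfap, on the same list, met the filter through the retina libraries alone, so its fall was nearly fixed in advance. With so few genes, these counts were not tested against the background. Serpina3n, a protease inhibitor of reactive glia, had 1.2, 2.2 and 25 in rods and 118, 198 and 1006 in retina (log2 -5.34 ± 1.01). It was highest in replicate 3 of both tissues.

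The enrichment in KO rods was set beside that in Het rods, which shares no library with it. In Het mice 9375 of 16161 genes were changed (58.0%), 3449 higher (21.3%) and 5926 lower (36.7%). That fit took no pairs, and with the replicate number as a block 9830 Het genes were changed. Of the genes higher in KO rods 2820 were higher in Het rods too, 68.1% of the KO and 81.8% of the Het list, and 5239 were lower in both, 89.0% and 88.4% of each list. Of the genes lower in KO rods, 2502 met the filter through the retina alone, and the Het fit used the same filter. Part of the sharing of falls can follow from that filter, so it is not set against the sharing of rises. In 0 genes were the calls opposite. Across 15744 genes the log2 differences had a Spearman correlation of 0.932 and a Pearson correlation of 0.973, as a description across genes, which are not independent. The rod list had a median of 1.93 in KO and 1.61 in Het, the Müller list -4.20 and -4.63, and the mitochondrial genome -6.12 and -6.15.

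**Figure D4:**
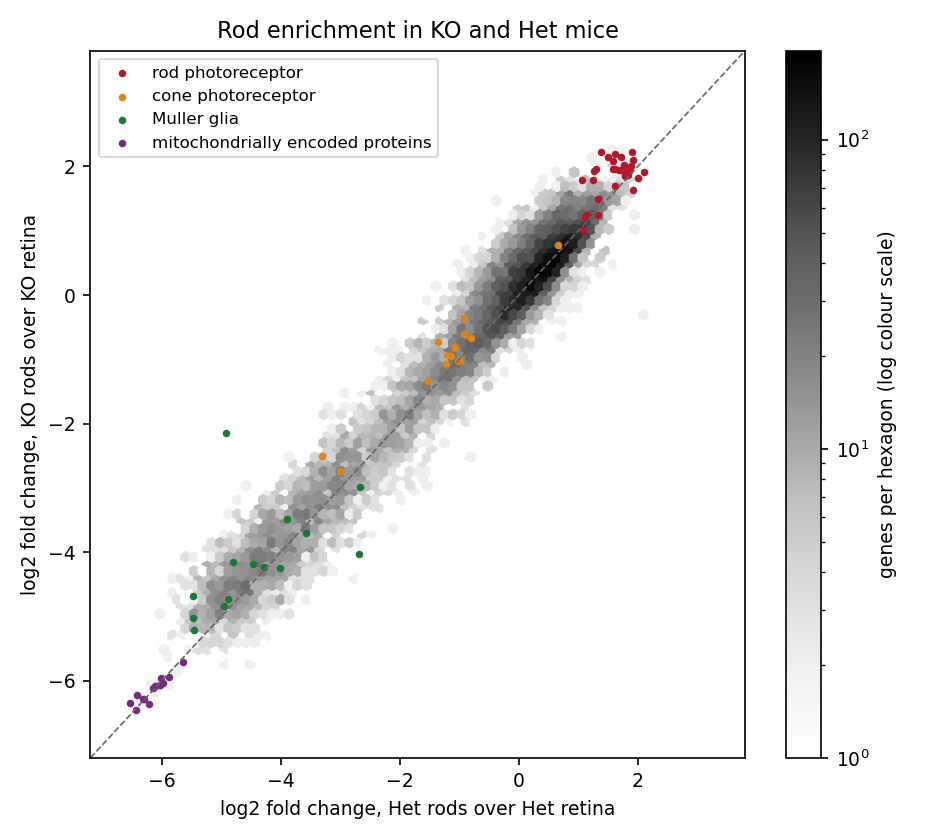
Log2 fold change of rods over retina in Het (x axis) and in KO (y axis) for 15744 genes tested in both, with the shade giving genes per hexagon on a log scale, 4 lists in colour and a dashed line of equal values. Genes lie along the line from the mitochondrial genes near -6 to the rod genes near 2 in both genotypes.

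A single model of all 12 libraries, which took no pairs, tested the difference between the genotypes. Of 17226 genes 0 passed the threshold (0% called), with a smallest adjusted p of 0.802 in limma, and 609 (3.54%) had an unadjusted p below 0.05. That number ran from 240 without KO retina replicate 2 to 2200 without Het retina replicate 3, and was 1885 without KO retina replicate 3. The median standard error of the difference was 0.347 on the log2 scale, beside 0.222 for the KO comparison, so differences of the size of the 0.5 threshold were not detectable for most genes. For Gnat1 the difference was 0.03 ± 0.149, for Sag 0.10 ± 0.361 and for Ptpn11 -0.326 ± 0.157 (SE, n = 3 in each of 4 groups). The differences went with GC content, with a Spearman correlation across genes of 0.517 and medians of -0.291 among the 10% GC-poorest genes and 0.455 among the 10% GC-richest, while in the KO comparison alone the correlation was 0.0678. The part of GC content in single differences was not tested.

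The 6 genes with the smallest p in that test are named with their log2 rod enrichment, although none passed. Srsf5, a splicing factor, had -0.769 in KO and -0.233 in Het, and Kctd6 had -1.40 and -0.758. Arpc5l, an Arp2/3 subunit, had -0.708 and -0.228, and Sez6l, a membrane protein of neurons, had -4.07 and -5.62. Rsrp1 had 0.271 and -0.765, and the predicted gene Gm12966 had -0.32 and 0.433. For both of the latter the KO rod and KO retina values overlapped.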

How the data were processed

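RNA was measured by RNA sequencing of 12 libraries, of which the 6 KO libraries are described here and the 6 Het libraries are set beside them. Poly(A) RNA was amplified with SMART-Seq V4. The deposited values are a signal proportional to read counts: in the authors' table each library holds read counts multiplied by 1 factor and rounded to whole numbers, a step that is not stated and was inferred from the values. The submitters' processing notes name CASAVA 1.8.2, HISAT2, DESeq2, edgeR and the build GRCm39, without their order or settings. The counting tool, annotation and strand are not given in the sources used here.

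Because the values are not raw counts, limma 3.58.1 in R 4.3.3 was used on log2 of the TMM-scaled value plus a pseudocount of 2, with trend and robust empirical Bayes. Folds are on that scale and understate changes of low genes. Tested genes reached 10 in 3 or more of the libraries fitted and summed to 15 or more. Benjamini-Hochberg adjustment covered all of them. The limits for a change were 0.05 for the adjusted p and 0.5 for the log2 difference in either direction. Reads per library are estimates, and 3 reads are 1.64e-05% to 2.52e-05% of a KO rod library and 1.56e-05% to 3.01e-05% of a KO retina library, for counting error only. Gene biotype and GC content came from GENCODE for GRCm38, with GC known for 98.5% of genes. The method was tested on simulated data with 100 genes changed at each true log2 of 1 and 2. The KO comparison recovered 52% and 85% of them, with 4.86% of calls false. The KO minus Het test recovered 28% and 74%, with 10.5% of calls false. Far fewer genes were changed there than in the real comparison, so the simulation does not show how the scaling does with these data. Deviations from group means of same-numbered rod and retina libraries correlated at 0.465, 0.41 and 0.25 in Het mice, above 0.1 in every pair. In KO mice they correlated at 0.332, -0.0137 and 0.181. The mean over same-numbered KO pairs was 0.167, and that over other KO pairs -0.0831. By the limit of 0.1 in every pair, the replicate numbers, which come from the titles, were taken to pair the Het but not the KO libraries. Whether the KO numbers pair libraries of the same mouse was not tested. The main fits nevertheless used no pairs in either genotype, and fits with the replicate number as a block are given at the end. The table held 0 columns of other samples.

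Named are Gnat1, Sag, Ptpn11, Gab1, Ocln and Rpl22, the 10 largest rises and falls among non-overlapping genes with a mean of at least 100 (predicted genes left out), up to 4 of the highest members of each of 32 lists and those called against the list, and the 6 smallest p of the interaction. Spc25, Hspb1, Pfkl, Hk2, Cplx4, Sucla2 and some called members were chosen after their values were seen. Some genes that the rule names are not reported here. The comparison, lists and rules were chosen with earlier results of these data known, so lists are described by counts and medians. Alternatives were other scalings, pseudocounts and filters, a log2 threshold of 1, all 12 libraries in 1 fit, the replicate number as a block, removal of the GC trend, leaving out each library, and, added after seeing the data, leaving out lens and mitochondrial genes before scaling. Python 3 scripts with matplotlib drew the figures.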

Additional observations from a re-analysis of the deposited data

How the results depend on the processing

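Depth limits genes with a few reads in rods, whose folds rest on the pseudocount. Library-total scaling left 1124 genes higher in rods, quantile normalization 3840 lower, a mean of at least 50 gave 3754 lower (6183 changed in Het mice), and a log2 threshold of 1 left 1536 higher. The other counts of changed genes stayed within 1.5 times of those reported. Leaving out a KO library gave 9341 to 10174 changed genes. The KO minus Het difference had 0 calls under each alternative but 1, with 1 call without Het rod replicate 3 (0 to 1 over the libraries left out).

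Signs turned under library-total scaling for Rpl22 (-0.236), Ptpn11 (-0.391) and Rsrp1 (-0.265), and for the list medians of cytosolic (-0.356) and mitochondrial ribosomal proteins (-0.0204) and immediate early genes (-0.134). They turned under quantile normalization for Cnga3 (0.10), Rpl22 (-0.0499), Mrps15 (0.127), Ptpn11 (-0.239), Gm12966 (0.539) and Rsrp1 (-0.207), and for the list medians of cytosolic ribosomal proteins (-0.152), cell cycle (0.734) and interferon genes (0.125). Prkca turned without KO rod replicate 2 (0.0131) or KO retina replicate 2 (0.0495) and ranged from -0.246 to 0.0495 over the libraries left out, and Spc25 turned without KO retina replicate 1 (0.0219) and ranged from -3.33 to 0.0219. Of 123 genes, 86 kept sign and call under each alternative. The cause was not tested.

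The KO libraries were not taken as paired by number, with correlations of 0.332, -0.0137 and 0.181. Lens genes followed the numbers in both tissues, highest in replicate 3 in KO mice and lowest in replicate 1 in Het mice (0.00407% of Het retina). With the replicate number as a block 9879 KO genes were changed, 4009 higher and 5870 lower, 9775 of them shared with the unblocked fit. In Het mice, where the numbers were taken to pair the libraries, the block gave 9830 changed genes beside 9375 in the main fit without it. It gave 0 for the KO minus Het difference.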
